A study of Mus musculus with 5 samples.

Results

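Sox1, Sox2, Sox3, Sox21, Pax3, Pax6, Pax7, Nes and Vim were examined as 9 genes that mark neural progenitors, chosen by symbol from the 23284 gene symbols in the count tables. All 9 were present and all 9 passed the minimum level for testing (a CPM above 1 in at least 2 samples), as did 12703 genes in all. RNA-seq was done on polyA RNA from neural tubes, the embryonic tissue that becomes the brain and spinal cord, dissected from E8.5 mouse embryos (the age in the labels, while the study's methods give a slightly later stage). The embryos were EpoR -/- (EpoR-null, 2 samples), EpoR +/+ (wild type, 2 samples) or EpoR +/- (heterozygote, 1 sample). The last 3 samples were the littermate controls. EpoR encodes the erythropoietin receptor. The deletion was carried by every cell of the EpoR-null embryo, blood cells included, and embryos came from matings of EpoR +/- mice. No transgene or treatment is named in the labels. Whether a sample was 1 embryo or a pool is not stated in the labels, so the p-values measure the spread between these samples.

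Neural progenitors of the early neural tube are kept in a dividing, undifferentiated state by the SoxB1 transcription factors Sox1, Sox2 and Sox3, which bind DNA through an HMG box and act largely as activators. Sox21 belongs to the related SoxB2 group, acts as a repressor at shared targets and favours differentiation. The Pax factors place progenitors along the dorsoventral axis, Pax3 and Pax7 in the dorsal tube and Pax6 in the middle and much of the ventral tube, and Pax3 and Pax7 are also used by the somites beside it. Nes (nestin) and Vim (vimentin) encode the intermediate filament proteins of progenitors, and Vim is also made by mesenchyme, endothelium and other cells.

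Promoter sequences are shown for 4 genes. These are Sox2, the most abundant SoxB1 gene, Pax7 and Nes, the genes whose levels lay farthest apart in the EpoR-null samples, and Vim, the most abundant of the 9. Of the 9 genes, 7 had a promoter in the RefSeq table used (build GRCm38.p6), and Pax3 and Sox3 had none there. Each sequence is the 250 bases before the annotated start, 5′ to 3′ on the gene's strand, at chr3:34649745-34649994 (plus strand) for Sox2, chr4:139832969-139833218 (minus strand) for Pax7, chr3:87970843-87971092 (plus strand) for Nes and chr2:13574061-13574310 (plus strand) for Vim. Capitals mark GGGCGG (GC box), ACAAAG and ACAATG (cores of SOX sites), CCAAT and TATAAA, searched on both strands.
Sox2: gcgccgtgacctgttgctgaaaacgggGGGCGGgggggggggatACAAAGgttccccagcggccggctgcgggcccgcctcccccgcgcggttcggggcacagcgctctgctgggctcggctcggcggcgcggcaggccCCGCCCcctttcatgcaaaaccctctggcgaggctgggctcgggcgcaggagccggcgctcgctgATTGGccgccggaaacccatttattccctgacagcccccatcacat
Pax7: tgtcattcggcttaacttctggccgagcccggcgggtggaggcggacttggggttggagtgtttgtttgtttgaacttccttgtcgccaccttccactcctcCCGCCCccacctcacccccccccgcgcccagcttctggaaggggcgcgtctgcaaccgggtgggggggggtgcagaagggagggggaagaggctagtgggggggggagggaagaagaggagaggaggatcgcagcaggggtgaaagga
Nes: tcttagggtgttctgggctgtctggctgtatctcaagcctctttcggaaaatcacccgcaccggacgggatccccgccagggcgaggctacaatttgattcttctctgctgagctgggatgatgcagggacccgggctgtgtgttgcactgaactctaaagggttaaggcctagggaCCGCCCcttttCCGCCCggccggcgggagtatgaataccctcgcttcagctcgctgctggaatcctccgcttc
Vim: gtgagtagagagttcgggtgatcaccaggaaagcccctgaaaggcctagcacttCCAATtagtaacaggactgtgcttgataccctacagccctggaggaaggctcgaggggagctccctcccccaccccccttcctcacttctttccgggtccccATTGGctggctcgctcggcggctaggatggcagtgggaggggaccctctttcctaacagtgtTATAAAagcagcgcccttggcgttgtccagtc

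The Sox2 window held 2 GC boxes, 1 ACAAAG and 1 CCAAT, that of Nes held 2 GC boxes, that of Pax7 held 1 GC box, and that of Vim held 2 CCAAT and 1 TATAAA. Among 32851 promoters with windows of the same length, 32.7% held a GC box, 16.5% ACAAAG, 10.7% ACAATG, 33.8% CCAAT and 12.4% TATAAA. The GC content was 72% for Sox2, 65.2% for Pax7, 58.8% for Nes and 58.4% for Vim, against a median of 52.4%. A match is a description of these letters, and binding was not measured.

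Reads counted on genes ranged from 19316126 to 41169218 per sample. Levels are given as CPM, reads of a gene per 1000000 reads on genes after TMM scaling, and 3 reads of a gene correspond to 0.0729 to 0.155 CPM. Epor, the targeted gene, had 2.35 and 1.62 CPM in the wild type samples, 0.476 CPM in the heterozygote, and 0.354 and 0.669 CPM in EpoR-null replicates 1 and 2. Both EpoR-null samples lay below both wild type samples, but the heterozygote lay between the EpoR-null samples, so this gene did not separate the heterozygote from the EpoR-null samples. Which exons the deletion removes was not used here. Forebrain and midbrain factors among the progenitor genes had few reads. Otx2 had 1 to 8 reads per sample, Six3 0 to 5, Rax 0 to 1, Hesx1 0 to 13 and Nr2e1 0 to 2. Lhx2 had 9 to 35 reads, with 0.389 to 0.548 CPM in controls and 1.77 and 0.493 CPM in EpoR-null replicates 1 and 2. These factors were named after their values were seen. The levels below are thus those of neural tube tissue with little RNA of the regions that these factors mark.

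In the 3 controls all 9 genes were expressed, with coefficients of variation from 4.62% (Sox1) to 17.4% (Pax7). To compare genes with each other, CPM were divided by the length in kilobases of the longest coding transcript in GENCODE M21. On that scale the level in controls (mean ± SD, n = 3) was 430 ± 30.9 for Vim, 139 ± 9.83 for Sox2 and 106 ± 13.2 for Nes. Sox3 followed at 46.6 ± 4.31 and Pax6 at 41.6 ± 3.20. Their ranges overlapped (41.7 to 49.5 and 38.0 to 44.1), and Pax6 rose to 66.2, above Sox3, when the median transcript length was used. Then came Sox1 at 23.8 ± 1.10, Pax3 at 19.9 ± 2.76 and Sox21 at 16.1 ± 0.755 CPM per kilobase. The ranges of these 3 genes nearly touched (Sox1 from 22.6, Pax3 from 17.0 to 22.4, Sox21 to 16.9), and with the median transcript length Pax3 reached 25.0 and overlapped Sox1. Pax7 was the lowest at 3.03 ± 0.526 CPM per kilobase, below the lowest value of every other gene, and 4.67 with the median transcript length.

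**Figure D1:**
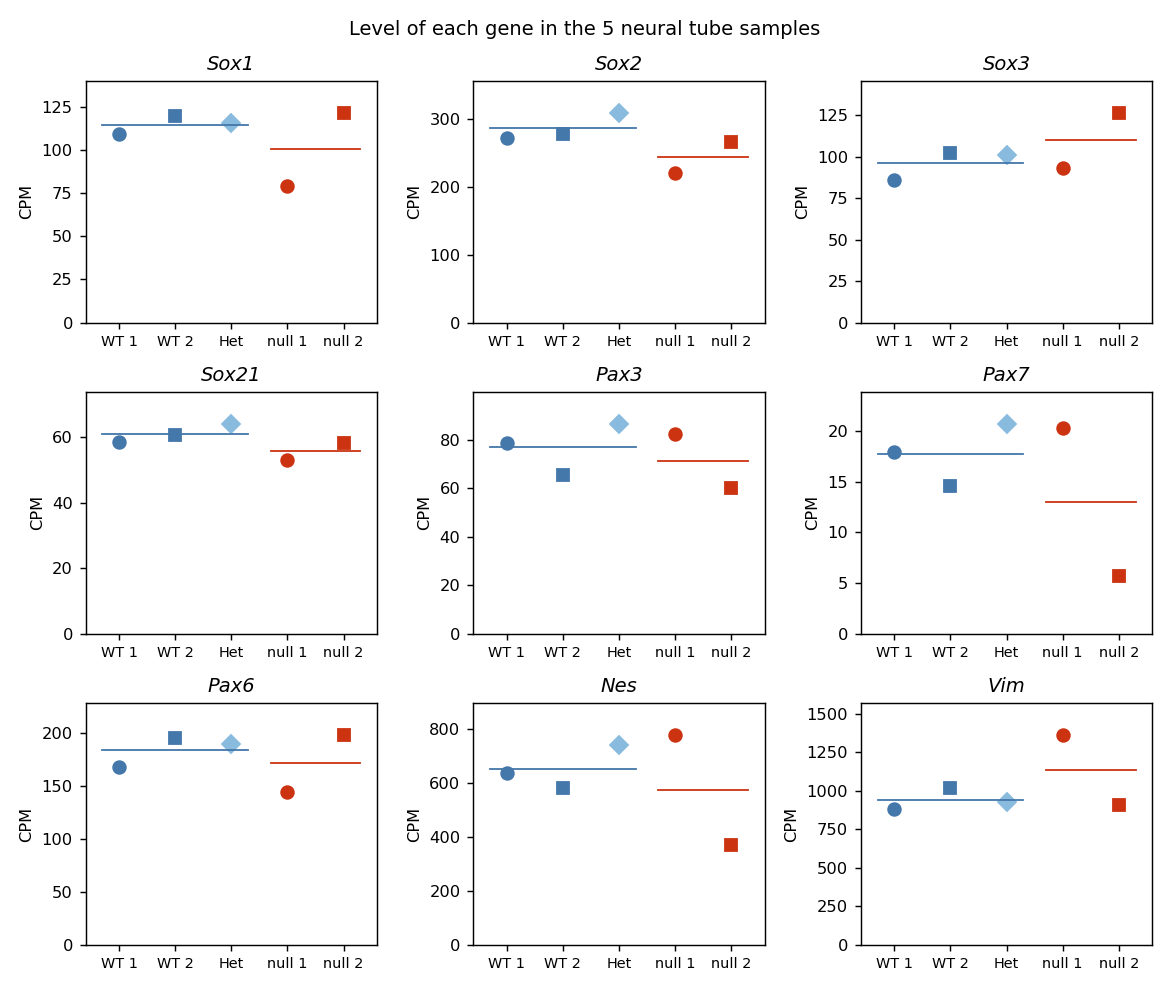
Level of each gene in CPM (vertical axes, from 0) in the 2 wild type samples (WT 1 and WT 2), the heterozygote (Het) and the 2 EpoR-null samples (null 1 and null 2). Points are single samples and lines are group means. The EpoR-null samples lie on opposite sides of the controls for Sox1, Pax6 and Nes, and Pax7 is lowest in EpoR-null replicate 2, at 5.67 CPM.

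The main comparison asked whether loss of EpoR changed the levels of these progenitor genes. In the exact test of edgeR, the test used in the study, 0 of the 9 genes passed an FDR of 0.05 (Benjamini-Hochberg over 12703 genes). Of all tested genes 7.31% passed, 5.49% lower and 1.81% higher in EpoR-null samples. None of the 9 had an unadjusted p under 0.05 in the exact test, the quasi-likelihood F-test of edgeR or DESeq2, and their lowest FDR in these tests was 0.449, 0.303 and 0.230. Log2 fold changes ran from -0.45 (Pax7) to 0.27 (Vim), 7 of the 9 were negative, and the median was -0.13 beside 0.06 over all tested genes. For 2 of the 9 genes, Sox2 and Sox21, both EpoR-null samples lay outside the controls on the same side, while 43.3% of all tested genes did so. The 95% intervals of the log2 fold change spanned from -0.62 to 0.23 for Sox1, from -0.55 to 0.08 for Sox2 and from -1.53 to 0.63 for Pax7, so equal levels were not shown either.

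Sox2, the SoxB1 factor shared with pluripotent cells, had 272, 277 and 309 CPM in wild type replicates 1 and 2 and the heterozygote, and 220 and 266 CPM in EpoR-null replicates 1 and 2. Both EpoR-null samples were below all controls, although replicate 2 missed the lowest control by only a few CPM. Mean Sox2 was 286 ± 20.2 (SD, n = 3) in controls and 243 ± 32.6 (SD, n = 2) in EpoR-null samples, and the log2 fold change was -0.23 (SE 0.16, exact test of edgeR, FDR 0.449). Sox2 kept its negative sign in every alternative tried, from -0.47 to -0.10. Sox2ot, a long transcript whose gene spans Sox2, had 45.0, 41.0 and 56.4 CPM in controls and 36.2 and 33.3 CPM in EpoR-null samples (log2 fold change -0.45, SE 0.21, exact test FDR 0.190). It was looked at after its values were seen, because reads could be split between overlapping genes.

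Sox1, expressed as the neural plate forms, had 109, 120 and 116 CPM in the controls. EpoR-null replicate 1 had 79.0 CPM, below all controls, and replicate 2 had 122 CPM, above all of them. The log2 fold change over both was -0.19 (SE 0.22, exact test of edgeR, FDR 0.677). With EpoR-null replicate 1 as the only EpoR-null sample it was -0.54 (FDR 0.000586), and with replicate 2 alone it was 0.08 (FDR 0.663). Such fits assume that a lone sample varies as the other group does, and many genes passed in them, 13.1% of all tested genes with replicate 1 alone and 30% with replicate 2 alone.

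Sox3, the X-linked SoxB1 gene, had 86.1, 102 and 101 CPM in the controls and 93.1 and 127 CPM in EpoR-null replicates 1 and 2. Replicate 1 lay among the controls and replicate 2 above them. Its log2 fold change was 0.19 (SE 0.19, exact test of edgeR, FDR 0.625), so that Sox3 and Vim were the 2 genes of the 9 with a positive value. With replicate 2 as the only EpoR-null sample Sox3 passed the threshold (0.39, FDR 0.0280), as 30% of all tested genes did, and with replicate 1 alone it was -0.05 (FDR 0.891). With length and GC offsets in the fit it was -0.01 (likelihood-ratio test of edgeR, FDR 0.999). The heterozygote and EpoR-null replicate 2 also differed from the other 3 samples in sex-linked genes. Xist, transcribed from the inactive X chromosome, had 671 and 219 CPM in these 2 samples and 0.101 to 0.331 CPM in the others. The Y-linked genes Ddx3y, Eif2s3y and Kdm5d had 0 to 0.0865 CPM in these 2 samples and 27.0 to 47.3 CPM in the others. These genes were named after their values were seen. By them the heterozygote and EpoR-null replicate 2 were female, and the other 3 samples, both wild type samples included, were male. Sex thus differed within the EpoR-null pair. Its part in the gaps between these samples and in the level of Sox3 was not tested.

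Sox21 had the smallest gap between the EpoR-null samples of the 9 genes, 1.10-fold. It had 58.5, 60.7 and 64.2 CPM in controls and 53.2 and 58.4 CPM in EpoR-null samples, the last just below the lowest control. The log2 fold change was -0.13 (SE 0.15, exact test of edgeR, FDR 0.675), with a 95% interval from -0.42 to 0.16 on the log2 scale.

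Sox3 relative to Sox2 was examined within each sample, which removes the scaling between libraries. The log2 ratio of Sox3 to Sox2 (CPM with 0.5 added) was -1.65, -1.44 and -1.61 in controls and -1.24 and -1.07 in EpoR-null samples, without overlap. The means differed by 0.41, from -1.57 ± 0.116 (SD, n = 3) to -1.15 ± 0.118 (SD, n = 2). The exact two-sided permutation test over samples gave p = 0.1, the smallest value that 2 against 3 samples allow, and 0.4 after adjustment over the 8 ratios computed. Leaving out single samples kept the difference between 0.33 and 0.50. The log2 ratio of Sox21 to Sox2 was -2.21, -2.180 and -2.26 in controls and -2.04 and -2.178 in EpoR-null samples, so that wild type replicate 2 and EpoR-null replicate 2 were all but equal. The difference of 0.11 (exact permutation p = 0.1, adjusted 0.4) fell to 0.04 without EpoR-null replicate 1. Sox1 relative to Sox2 differed by 0.01 (exact permutation p = 0.9).

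Pax6, the patterning factor of middle and ventral progenitors, had 168, 195 and 189 CPM in controls and 144 and 198 CPM in EpoR-null replicates 1 and 2. As for Sox1, the first was below and the second above every control. The log2 fold change was -0.11 (SE 0.19, exact test of edgeR, FDR 0.822).

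Pax3, the dorsal factor that is also used by neural crest and somites, had 78.8, 65.6 and 86.7 CPM in controls and 82.5 and 60.1 CPM in EpoR-null samples. Its log2 fold change was -0.11 (SE 0.21, exact test of edgeR, FDR 0.832). Replicate 1 lay among the controls and replicate 2 below them.

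Pax7, the paralogue of Pax3, differed most between the EpoR-null samples. It had 433, 611 and 479 reads in the controls (17.9, 14.6 and 20.7 CPM) and 402 and 161 reads in EpoR-null replicates 1 and 2 (20.3 and 5.67 CPM). Replicate 1 lay among the controls, and replicate 2 was below all of them. The 3.58-fold gap between the EpoR-null samples (log2 difference 1.83) was reached by 3.13% of all tested genes, whose median absolute gap was 0.33. Because of this spread the log2 fold change of -0.45 had an SE of 0.55 (exact test of edgeR, FDR 0.719). With replicate 2 as the only EpoR-null sample it was -1.64, and with replicate 1 alone it was 0.20.

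Relative to Pax3, Pax7 was nearly constant in 4 of the 5 samples, with log2 ratios of -2.11, -2.13 and -2.04 in controls and -1.997 in EpoR-null replicate 1, against -3.30 in EpoR-null replicate 2. The difference between groups was -0.55 (exact permutation p = 0.4). The ratio of Pax3 to Pax6, which sets a dorsal against a more ventral factor, differed by 0.00 on the log2 scale (exact permutation p = 1) but spanned -0.80 to -1.71 within the EpoR-null pair, wider than the controls (-1.09 to -1.57).

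Nes had 635, 579 and 738 CPM in controls and 777 and 368 CPM in EpoR-null replicates 1 and 2. These lay above and below every control. The 2.11-fold gap within the EpoR-null pair was reached by 9.14% of tested genes. The log2 fold change was -0.18 (SE 0.34, exact test of edgeR, FDR 0.827). With replicate 2 alone it was -0.82, and with replicate 1 alone 0.26.

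Vim had 884, 1017 and 925 CPM in controls and 1363 and 906 CPM in EpoR-null replicates 1 and 2, so that only replicate 1 lay above the controls. The log2 fold change was 0.27 (SE 0.22, exact test of edgeR, FDR 0.527). It was 0.53 with replicate 1 alone and -0.06 with replicate 2 alone. The log2 ratio of Nes to Vim was -0.48, -0.81 and -0.33 in controls and -0.81 and -1.30 in EpoR-null samples, a difference of -0.52 (exact permutation p = 0.3) that was -0.27 without EpoR-null replicate 2 and -0.76 without replicate 1.

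**Figure D2:**
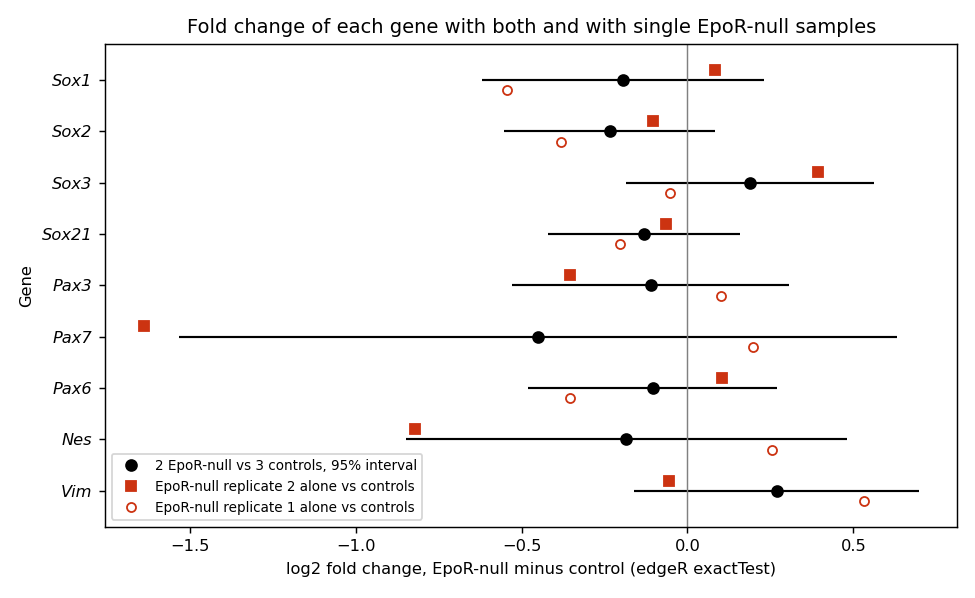
Log2 fold change (horizontal axis) of each gene in EpoR-null against the 3 control samples. Black points with lines are fits of both EpoR-null samples with 95% intervals, and red symbols are fits with a single EpoR-null sample. All 9 intervals include 0, and the single-sample values of 7 genes, all but Sox2 and Sox21, lie on opposite sides of 0.

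Set against the controls one at a time, the EpoR-null samples thus differed in different genes. Replicate 1 was below all controls for Sox1, Sox2, Sox21 and Pax6 and above them for Nes and Vim. Replicate 2 was below for Sox2, Sox21, Pax3, Pax7 and Nes and above for Sox1, Sox3 and Pax6. Most tested genes lay outside the control range as well. Replicate 1 was within it for 9.8%, 7.53% and 6.01% of tested genes (replicate 2 above, below and within). Replicate 2 was within it for 8.11%, 4.64% and 6.01% (replicate 1 above, below and within). By the sex-linked genes above, these samples also differed in sex. For 3 of the 9 genes (33.3%) the EpoR-null samples lay on opposite sides of the control range, compared with 20.6% of all tested genes. The 5 genes with less RNA in replicate 1 than in replicate 2 were Sox1, Sox2, Sox3, Sox21 and Pax6, and those with more were Pax3, Pax7, Nes and Vim.

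Markers of other cell states also differed between the EpoR-null samples. All 15 neuronal differentiation genes listed were lower in EpoR-null replicate 2 than in EpoR-null replicate 1. So were all 10 mesenchyme and all 8 endothelial markers listed below. Of the SoxB1 partners and progenitor genes, 13 of 20 tested were lower, and of the dorsoventral genes 5 of 18. The share over all tested genes was not computed. The summed level of the 15 neuronal genes was 1462 CPM in EpoR-null replicate 1 and 355 CPM in EpoR-null replicate 2. It was 685 and 489 CPM in wild type replicates 1 and 2 and 809 CPM in the heterozygote. The sum was thus lower in replicate 2 in the wild type pair too, by a smaller gap. Tubb3, the tubulin of newborn neurons, had 157, 133 and 187 CPM in controls and 454 and 104 CPM in EpoR-null replicates 1 and 2. Dcx, a microtubule protein of young neurons, had 14.7 to 40.9 CPM in controls and 101 and 4.33 CPM in EpoR-null samples, and was named after its values were seen. None of the 15 passed the test (exact test of edgeR, FDR 0.05), and their median log2 fold change was 0.37. The part of these cells in the levels of Nes, Pax7 and the other genes was not tested. In tissue RNA, fewer cells of a type and less RNA per cell cannot be told apart.

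**Figure D3:**
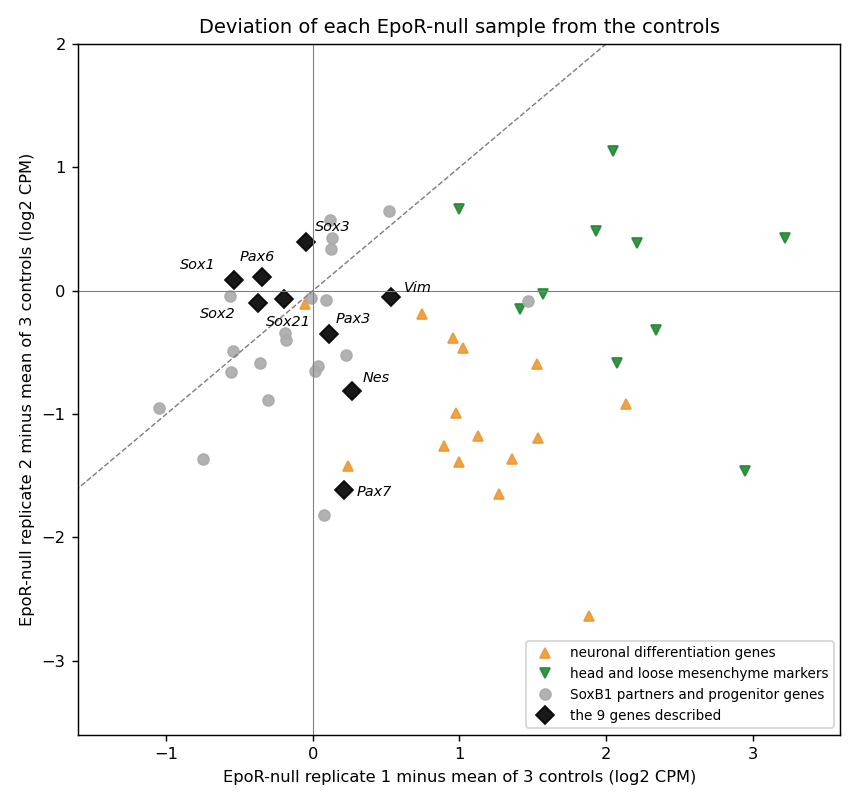
Log2 CPM of each gene in EpoR-null replicate 1 (horizontal axis) and replicate 2 (vertical axis), each minus the mean of the 3 controls, with the dashed line marking equal deviations. Black diamonds are the 9 genes, orange triangles neuronal differentiation genes, green triangles mesenchyme markers and grey points SoxB1 partners and progenitor genes. All neuronal and mesenchyme genes lie below the line, as do Pax3, Pax7, Nes and Vim, while Sox1, Sox2, Sox3, Sox21 and Pax6 lie above it.

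Summed levels of markers of other tissues were also unequal between samples. The 10 head and loose mesenchyme markers summed to 228 and 198 CPM in the wild type samples, 32.9 CPM in the heterozygote, and 446 and 105 CPM in EpoR-null replicates 1 and 2. Col3a1, a fibrillar collagen and the highest of them in CPM, had 118, 99.8, 7.70, 228 and 36.1 CPM in that order. The 10 paraxial mesoderm markers followed with 49.6 and 46.2, then 10.2, then 105 and 34.8 CPM, led by Meox1. The heterozygote stood apart with 13.1 CPM of the 8 endothelial markers and 44.2 CPM of the 8 erythroid markers, compared with 160 to 317 CPM and 603 to 1693 CPM in the other samples. By mean CPM over the samples the highest of these markers were Kdr and Hbb-y. Neural crest markers, led by Ets1, summed to 111 CPM in the heterozygote and 149 to 260 CPM elsewhere. Ets1 alone had 12.8 CPM in the heterozygote and 51.9 to 82.4 CPM elsewhere, so much of this gap was Ets1. In the heterozygote 7 of the 9 neural crest markers were below both wild type samples. So were all 8 endothelial and all 7 tested erythroid markers, but 3 of the 18 dorsoventral genes and 0 of the 15 neuronal genes. The share over all tested genes was not computed. Surface ectoderm markers, led by Tfap2c, summed to 4.06 to 7.75 CPM.

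In the heterozygote, where mesenchyme and mesoderm markers were the lowest of all samples, Vim (925 CPM) lay between the wild type samples, and Pax7 (20.7 CPM) and Pax3 (86.7 CPM) were the highest of the controls. In EpoR-null replicate 1, where the mesenchyme markers were the highest, Vim was also the highest. The part of these cells in the levels of Vim, Pax3 and Pax7 was not tested.

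**Figure D4:**
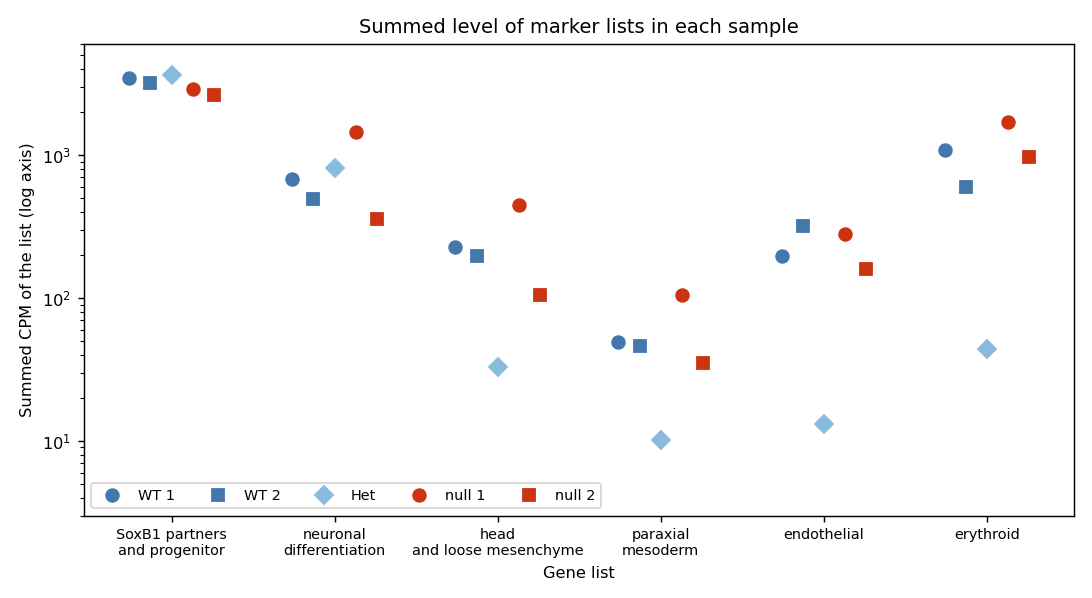
Summed CPM (vertical axis, logarithmic) of 6 gene lists (horizontal axis) in the wild type (WT 1, WT 2), heterozygous (Het) and EpoR-null (null 1, null 2) samples, 1 point per sample. The heterozygote is lowest for the mesenchyme, mesoderm, endothelial and erythroid lists, and neuronal genes range from 355 CPM in EpoR-null replicate 2 to 1462 CPM in EpoR-null replicate 1.

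Genes that work with the SoxB1 factors, or mark the same progenitors, were compared in the same fit. Of 26 listed, 20 were tested, 4 were lower (Pou2f1, Chd7, Msi1 and Gli3), 0 were higher and 16 did not pass, beside 5.49% lower and 1.81% higher over all tested genes. The median log2 fold change was -0.27, against 0.06 for all tested genes. Pou2f1, an octamer-binding POU factor, had 80.0, 65.7 and 86.0 CPM in controls and 37.0 and 39.8 CPM in EpoR-null samples (log2 fold change -1.01, SE 0.18, exact test of edgeR, FDR 1.26e-05). Chd7, a chromatin remodeller that binds with Sox2, had 254, 232 and 278 CPM in controls and 151 and 98.6 CPM in EpoR-null samples (-1.03, SE 0.23, exact test FDR 0.000784). Both EpoR-null samples were well below every control for both genes.

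Gli3, a transcription factor of Hedgehog signalling, had 173, 167 and 178 CPM in controls and 117 and 110 CPM in EpoR-null samples (-0.61, SE 0.13, exact test FDR 0.000514). Msi1, an RNA-binding protein of neural progenitors, had 240, 264 and 256 CPM in controls and 174 and 181 CPM in EpoR-null samples (-0.51, SE 0.14, exact test FDR 0.00712). The quasi-likelihood F-test, which allows for the uncertainty of each gene's dispersion, gave an FDR of 0.0590 for Pou2f1 and Gli3, 0.0767 for Chd7 and 0.0662 for Msi1. With length and GC offsets in the fit, Pou2f1 (-0.49, FDR 0.120), Chd7 (-0.62, FDR 0.143) and Gli3 (-0.22, FDR 0.811) no longer passed and Msi1 did (-0.67, FDR 0.00302, likelihood-ratio test of edgeR). In the exact test Msi1 did not pass when any 1 control was left out, with an FDR of 0.142 without wild type replicate 1, of 0.136 without wild type replicate 2 and of 0.0950 without the heterozygote. Gli3 did not pass when wild type replicate 1 was left out (exact test FDR 0.0779).

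Hmga2, a chromatin protein and the highest of the list in CPM, had 604, 547 and 557 CPM in controls and 384 and 552 CPM in EpoR-null samples (exact test FDR 0.468). The Notch effector Hes5 had 84.2 to 113 CPM in controls and 104 and 121 CPM in EpoR-null samples (exact test FDR 0.537). It was named after its values were seen.

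Within the Sox family, 12 of 16 other members were tested and 0 passed (exact test of edgeR, FDR 0.05), with a median log2 fold change of 0.19. Sox11, a SoxC factor of neurons in formation and the gene with the highest CPM of these, had 498, 395 and 520 CPM in controls and 666 and 393 CPM in EpoR-null replicates 1 and 2. Of the 6 other Pax genes 4 were tested and 1, Pax8, was higher. It had 22, 37 and 14 reads in controls (0.605 to 0.909 CPM) and 50 and 72 reads in EpoR-null samples (2.53 and 2.54 CPM), a log2 fold change of 1.65 (SE 0.41, FDR 0.00240 in the exact test of edgeR and 0.0677 in the quasi-likelihood F-test). It did not pass the exact test when wild type replicate 1 (FDR 0.116), wild type replicate 2 (FDR 0.0598) or the heterozygote (FDR 0.0614) was left out, and without either EpoR-null sample it fell under the minimum level. All controls were below 1 CPM, so Pax8 entered the test only through the group in which it was high. Pax1, a gene of the sclerotome and the highest in CPM of these 6, had 9.67, 7.96 and 0.605 CPM in controls and 20.1 and 4.79 CPM in EpoR-null samples.

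Other intermediate filament genes were no clearer. Of 15 listed, 14 were tested and 0 passed (exact test of edgeR, FDR 0.05), with a median log2 fold change of 0.66. Lmnb1, a nuclear lamin and the highest in CPM, had 661 to 701 CPM in controls and 681 and 618 CPM in EpoR-null samples (log2 fold change -0.06, SE 0.14). Nefm, a neurofilament subunit of neurons named after its values were seen, had 57.2, 34.2 and 76.5 CPM in controls and 227 and 17.8 CPM in EpoR-null replicates 1 and 2.

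Among 18 genes of dorsoventral pattern, all tested, 1 was lower (Gdf7) and 0 were higher. Gdf7, a BMP ligand of the roof plate, had 1.53, 2.69 and 2.12 CPM in controls and 0.505 and 0.387 CPM in EpoR-null samples, from 10 and 11 reads (log2 fold change -2.26, SE 0.53, FDR 0.00137 in the exact test of edgeR and 0.0675 in the quasi-likelihood F-test). Both EpoR-null samples were below 1 CPM, so Gdf7 entered the test only through the controls. The median of the list was -0.04. Irx3, a factor of middle progenitors and the highest in CPM, had 79.1, 92.0 and 86.9 CPM in controls and 64.3 and 109 CPM in EpoR-null replicates 1 and 2. In EpoR-null replicate 2, where Pax7 was low, 5 of the 18 genes were below all controls, namely Msx2, Gsx2, Gdf7, Dbx1 and Nkx6-1. Such a position was common. Of all tested genes, 22.1%, 9.73% and 7.53% were below all controls in replicate 2 (with replicate 1 below, above and within their range). Dbx1 missed the lowest control narrowly (53.6 against 54.7 CPM). Msx2, a dorsal homeobox gene, had 5.62 to 9.01 CPM in controls and 10.3 and 5.39 CPM in the EpoR-null samples, while Gsx2, also dorsal, had 1.88 to 2.98 CPM against 3.13 and 1.69 CPM. The dorsal genes Wnt1 (23.2 to 26.7 CPM in controls, 16.2 and 31.4 CPM in EpoR-null samples) and Olig3 (49.0 to 60.6 CPM in controls, 65.6 and 53.5 CPM) were not below the controls in replicate 2. Apart from Gdf7 these genes were named after their values were seen, and Gdf7 was the 1 gene of them past the threshold.

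The genes whose pattern over the 5 samples was most like that of a member were found by the root mean square difference in centred log2 CPM. For Sox2 the nearest was 2410131K14Rik (0.026), for Sox1 Snapc4 (0.018), for Sox3 Pars2 (0.024), for Sox21 Slc25a23 (0.018) and for Pax6 Cry2 (0.025). Pax3 was nearest to Itgb1bp2 (0.022), Nes to Ppargc1a (0.035) and Vim to Zkscan14 (0.029). Pax7 had the most distant neighbours, first Zfp811 (0.080) and then Dcc (0.087), a netrin receptor. With 5 samples such likeness is a description only.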

How the data were processed

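PolyA RNA-seq was done by the authors on neural tubes of 5 samples, which were grouped by the genotype in their labels. The authors deposited 1 table of raw read counts per gene symbol and sample, without normalization. The submitters' processing notes list Trimmomatic 0.32, TopHat2 2.1.0, HTSeq 0.6.1 and the mouse build mm9. The study's methods name a human build for RNA-seq reads, and the annotation and strand setting are not given in the sources used here. HTSeq leaves out reads that align to several places or overlap several genes, and without a known strand setting reads of overlapping genes may be mixed. Lines without a gene (reads outside genes or ambiguous) made up 10.4% to 12.9% of uniquely aligned reads and were left out.

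The test followed the study (edgeR 4.0.16, run under R 4.3.3), with TMM scaling, tagwise dispersions and exactTest, EpoR-null (n = 2) against 3 controls, Benjamini-Hochberg FDR over all tested genes, threshold 0.05. The call rule was wider than that of the study, which counted genes at p under 0.001 together with FDR under 0.05. That rule gave 606 genes here (4.77% of those tested). Genes needed a CPM above 1 in at least 2 samples. Standard errors came from the negative binomial information, and 95% intervals are 1.96 SE to either side. Likeness and gaps between samples used log2 CPM with a prior count of 2, ratios used CPM with 0.5 added. Depth per sample was 19316126 to 41169218 reads on genes. No pair of samples agreed within sampling noise (chi-square per degree of freedom at least 13.3), so none was treated as a repeat of another. This does not show that the samples came from separate embryos or litters. Alternatives were the quasi-likelihood F-test without and with the replicate number as a block, DESeq2 1.42.0, RLE factors, no scaling beyond library size, no minimum level, a minimum of 10 reads per gene in all samples, each sample left out, and a likelihood-ratio test with offsets for loess trends (span 0.5) on transcript length and GC content. Lengths came from GENCODE M21 and matched 90.7% of tested genes by symbol. The median transcript length was added after the data were seen. Fits were tested on simulated data.

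The 9 genes and all lists were chosen with earlier results of these data known. Named genes are the 9, Epor, and from each other list the genes past FDR 0.05 (at most 5) and the gene with the highest mean CPM, plus for each of the 9 its nearest genes in pattern. Others are named as chosen after their values were seen. Map2 was taken under its older symbol Mtap2.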

Additional observations from a re-analysis of the deposited data

How the results depend on the processing

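When single samples were left out, the number of the 9 genes past FDR 0.05 ranged from 0 to 3 (3 without EpoR-null replicate 1: Sox3, Pax7 and Nes; 2 without EpoR-null replicate 2: Sox1 and Vim), and the number of all tested genes from 115 to 3778 against 928 (3778, or 30%, and 1654, or 13.1%, without EpoR-null replicates 1 and 2). In all other alternatives 0 of the 9 passed. Over all genes the quasi-likelihood F-test gave 0 genes (3052 at an unadjusted p under 0.05), the same test with a replicate block 695, DESeq2 1737, length and GC offsets 167, and p under 0.001 together with FDR under 0.05 gave 606. The quasi-likelihood F-test also gave 0 calls in the lists of SoxB1 partners, other Pax genes and dorsoventral genes. Signs turned for 7 genes between the fits without EpoR-null replicate 1 and without EpoR-null replicate 2, whose log2 fold changes were 0.084 and -0.54 for Sox1, 0.39 and -0.052 for Sox3, -0.36 and 0.10 for Pax3, 0.11 and -0.36 for Pax6, -1.64 and 0.20 for Pax7, -0.82 and 0.26 for Nes and -0.056 and 0.53 for Vim, and with length and GC offsets for Sox3 (-0.011). In those offset fits the log2 fold change of Sox2 was -0.47 (likelihood-ratio test, FDR 0.196). The cause was not tested. Log2 ratios with single samples left out ranged from -0.45 to 0.46 for Pax3 to Pax6, from -1.66 to 0.55 for Pax7 to Pax6, from -1.20 to 0.10 for Pax7 to Pax3, from -0.16 to 0.19 for Sox1 to Sox2, from 0.037 to 0.18 for Sox21 to Sox2 and from -0.71 to 0.64 for Nes to Sox2. A pseudocount of 2 gave -0.46 for Pax7 to Pax3.

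The samples share replicate numbers but nothing in the labels says that a number marks a litter or day. Across genes, which are not independent, the gap from wild type replicate 1 to 2 correlated with that from EpoR-null replicate 1 to 2 with a Pearson's r of 0.427 and a Spearman's rho of 0.529, and it had the same sign for 8 of the 9 genes, all but Vim, and for 71.6% of tested genes. With the replicate block 0 of the 9 passed (lowest FDR 0.256, quasi-likelihood F-test of edgeR), with a log2 fold change of -0.25 for Sox2 and 0.13 for Sox3, and the Sox3 to Sox2 ratio differed by 0.38. Pou2f1, Chd7, Gli3 and Msi1 passed in that fit (FDR 0.0412 to 0.0460), as 695 of all 12703 tested genes did. These 4 genes had been named because they passed the exact test on the same counts, so this is not separate support. The lowest read count of the 9 genes was 161 (Pax7), while Gdf7 had 10 and 11 reads in EpoR-null samples and Pax8 14 to 37 in controls.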

Other observations

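Fabp7, a fatty acid binding protein of radial glia, had 39.0, 30.7 and 48.6 CPM in controls and 107 (replicate 1) and 36.5 CPM (replicate 2) in EpoR-null samples, and its log2 fold change of 0.87 did not pass (exact test of edgeR, FDR 0.292). Pou3f4, a POU factor of neural progenitors, had 13.2, 11.4 and 15.4 CPM in controls and 13.9 and 3.70 CPM in EpoR-null samples, the same order of samples as Pax7 within the EpoR-null pair. Sox4, a SoxC factor, had 114, 89.5 and 116 CPM in controls and 106 and 39.0 CPM in EpoR-null samples (FDR 0.518, exact test of edgeR). Nkx2-9, a factor of ventral progenitors, had the widest gap between the EpoR-null samples of the 18 dorsoventral genes listed, with 17.4, 29.8 and 20.3 CPM in controls and 4.04 and 41.2 CPM in EpoR-null replicates 1 and 2. These genes were named after their values were seen.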
